A study of Mus musculus with 6 samples.

Results

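Matrix metalloproteinases (MMPs) and the tissue inhibitors of metalloproteinases (TIMPs) were examined in M2c-polarized macrophages lacking the soluble epoxide hydrolase (sEH). The genes were chosen by name, with earlier results of these data known. They comprised 7 MMPs (*Mmp2*, *Mmp8*, *Mmp9*, *Mmp12*, *Mmp13*, *Mmp14* and *Mmp19*) and 3 inhibitors (*Timp1*, *Timp2* and *Timp3*), each of which is 1 of the 19309 genes counted. The 6 RNA libraries came from bone marrow-derived macrophages, 3 from sEH-/- mice, which carry a constitutive deletion of *Ephx2* in all tissues, and 3 from wild-type mice. According to the methods, strain- and age-matched littermates were used, the wild-type strain was C57BL/6N, and bone marrow was taken at 8 to 10 weeks of age, mostly from females. The cells of both genotypes were differentiated for 7 days with M-CSF plus GM-CSF, exposed to LPS and IFN-γ to give M1 macrophages, and then given TGF-β1 in addition to give M2c macrophages. By the labels the M1 step lasted 24 h and TGF-β1 treatment 48 h, but the methods state 12 h for the former and either 24 h or 48 h for the latter. No MMP or TIMP protein or enzyme activity was measured in these libraries.

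MMPs are zinc-dependent endopeptidases that cleave collagen, elastin, gelatin and other proteins around the cell. Most are secreted as inactive proenzymes, and each TIMP blocks an active MMP by occupying its catalytic site. Macrophages use these enzymes to move through tissue, to clear damaged matrix and to release or inactivate cytokines and chemokines, and TGF-β and inflammatory stimuli are well-known regulators of their genes.

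The genotype labels were checked by *Ephx2*, the deleted gene, which had 4, 2 and 1 counts in sEH-/- replicates 1 to 3 and 26, 49 and 57 counts in wild-type replicates 1 to 3. All values below are given in this order. The libraries held 4400197 to 6096440 counts each. The 8 macrophage markers examined, among them *Adgre1*, *Csf1r* and *Cd68*, were detected throughout and summed to between 1744 and 2457 CPM. CPM are the counts of a gene per 1000000 counts of its library, with library sizes normalized by TMM factors. Of 5 sex genes looked for, 1 was counted, the female-specific *Xist*, at 465.7 to 742.9 CPM in all 6 libraries. The Y-linked genes looked for were not among the genes counted.

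The transcripts of both gelatinases rose in sEH-/- macrophages, *Mmp9* by 3.99-fold and *Mmp2* by 1.75-fold, whereas none of the other 8 genes passed the test. The differences are given as log2 fold changes of sEH-/- over wild-type cells from edgeR's quasi-likelihood test, and a gene was called at a Benjamini-Hochberg adjusted p below 0.05 over all 13785 tested genes together with a change of more than 1.5-fold in either direction. All 10 genes had enough counts to be tested, and 2 of the 10 were called, both higher. Calls were made for 2.61% of all tested genes, 1.51% with higher and 1.1% with lower levels in sEH-/- cells. These genes and the related lists below were chosen with earlier results of these data known. Their shares of calls are therefore a description and not an independent test. Of the 10 log2 fold changes 8 were above 0, and their median was 0.17, against −0.00092 over all tested genes. Of the 13785 tested genes 6867 were above 0. A lean above 0 was not particular to these genes. The related lists below had medians from 0.12 to 0.43, and the macrophage markers ranged from 0.069 (*Cd68*) to 0.50 (*Cd14*). For *Mmp2* and *Mmp9* the values of the 3 sEH-/- libraries lay above those of all 3 wild-type libraries, and for the other 8 genes the genotypes overlapped. Over all tested genes the genotypes did not overlap in 26.3%, and in 11.8% all sEH-/- values were the higher ones. In cultures sequenced in bulk, more cells that express a gene and more RNA per cell cannot be told apart.

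The members of the MMP family share a catalytic core, and the coding DNA of its zinc-binding site is shown because it is the feature common to the genes compared. The sequences below are 33 bases each from the GENCODE M21 transcripts, read 5′ to 3′ on the plus strand of mm10, and capitals mark the codons of the 3 zinc-binding histidines and of the catalytic glutamate.
Mmp2: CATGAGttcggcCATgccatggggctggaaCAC
Mmp9: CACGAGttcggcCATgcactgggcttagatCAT
Mmp8: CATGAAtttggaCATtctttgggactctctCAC
Mmp13: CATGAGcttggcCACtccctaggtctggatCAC
Mmp12: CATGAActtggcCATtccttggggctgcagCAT
Mmp14: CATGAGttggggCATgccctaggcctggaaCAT
Mmp19: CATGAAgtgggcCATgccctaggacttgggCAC
The site lies at chr8:92839279-92839311 in *Mmp2* and at chr2:164951133-164951165 in *Mmp9*, in both cases within exon 8 of 13. In the other MMPs it lies in exon 5 of 9 or 10, at chr9:7563086-7563118 in *Mmp8*, chr9:7276573-7276605 in *Mmp13*, chr9:7352914-7352946 in *Mmp12*, chr14:54437627-54437659 in *Mmp14* and chr10:128795673-128795705 in *Mmp19*. The site starts at codon 403 in *Mmp2* and at codon 401 in *Mmp9*, but between codons 213 and 239 in the others. Gelatinases carry fibronectin type II repeats, which bind gelatin, within the catalytic domain ahead of this site. Between *Mmp2* and *Mmp9* 25 of the 33 bases were identical, and over all pairs of the 7 genes between 20 and 27 were.

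*Mmp9* encodes gelatinase B, which degrades denatured collagen and basement membrane collagen and is stored in granules by neutrophils. It lies on the plus strand of mm10 chromosome 2, at chr2:164940780-164955850. The *Mmp9* level was 103.2, 49.8 and 41.0 CPM in the sEH-/- libraries, from 603, 247 and 177 counts. In the wild-type libraries it was 14.95, 16.6 and 17.6 CPM, from 68, 102 and 98 counts. The wild-type libraries thus lay close together, whereas sEH-/- replicate 1 was far above the other two. Mean *Mmp9* levels (± SD, n = 3 mice per genotype) were therefore 64.7 ± 33.6 CPM without and 16.4 ± 1.32 CPM with the sEH. The log2 fold change of *Mmp9* was 1.995 (SE 0.31, edgeR adjusted p = 0.016), with a 95% interval of the fold change from 2.47 to 6.43. Without sEH-/- replicate 1 it was 1.47 (edgeR adjusted p = 0.0041). *Mmp9* lost its call without wild-type replicate 2 (2.001, edgeR adjusted p = 0.074) and without wild-type replicate 3 (2.05, adjusted p = 0.11), and over all alternatives the adjusted p lay between 0.00036 and 0.11.

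*Mmp2* encodes gelatinase A, a widely expressed enzyme that degrades gelatin and basement membrane collagen and is typical of fibroblasts. It lies on the plus strand of chromosome 8, at chr8:92827291-92853420. Its level was 64.5, 67.2 and 61.2 CPM in sEH-/- libraries and 34.1, 41.2 and 34.6 CPM in the wild-type libraries. In contrast to *Mmp9*, the sEH-/- libraries were as close to each other as the wild-type libraries. Mean *Mmp2* levels (± SD, n = 3 mice per genotype) were 64.3 ± 2.99 CPM without and 36.6 ± 3.98 CPM with the sEH. The log2 fold change of *Mmp2* was 0.81 (SE 0.099, edgeR adjusted p = 0.0086), with a 95% interval of the fold change from 1.50 to 2.04. It ranged from 0.76 to 0.90 when single libraries were left out, and the call was lost without wild-type replicate 3 (0.76, edgeR adjusted p = 0.084). Over all alternatives the adjusted p of *Mmp2* ranged from 5.2e-06 to 0.084.

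**Figure D1:**
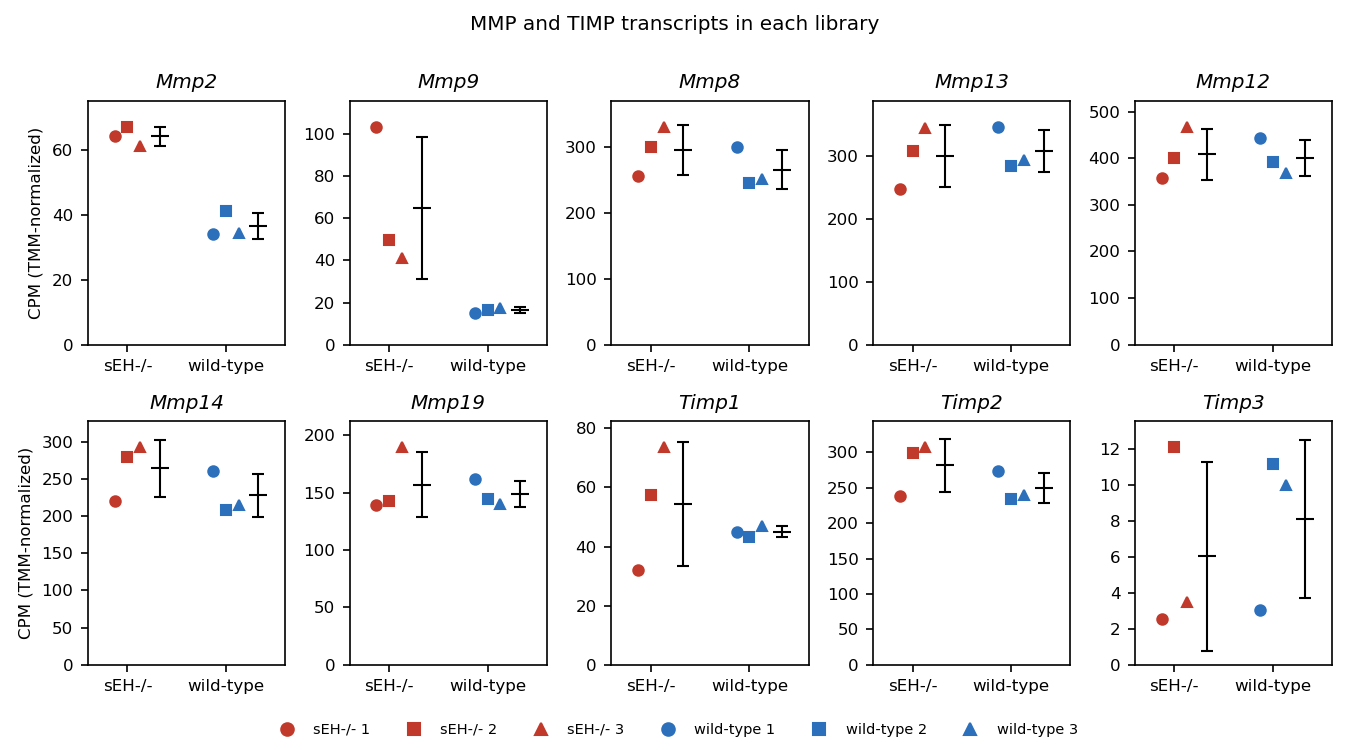
TMM-normalized levels (CPM, y axis from 0) of the 7 MMP and 3 TIMP transcripts in each library, with sEH-/- in red and wild-type in blue, the symbol shape giving the replicate number, and the black bars the mean ± SD (n = 3 mice). *Mmp2* and *Mmp9* separate the genotypes, with sEH-/- replicate 1 highest for *Mmp9* at 103.2 CPM, whereas the genotypes overlap for the other 8 genes.

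Outside macrophages, *Mmp2* is made by stromal cells and *Mmp9* by neutrophils and osteoclasts, and markers of these cells were counted in the same libraries. The 11 stromal markers counted (for example *Col1a1*, *Col3a1* and *Dcn*) summed to between 28.1 and 38.5 CPM in sEH-/- and between 16.5 and 89.9 CPM in wild-type libraries, and *Thy1* was at 0 in every library. The library with the highest stromal sum, wild-type replicate 2, had the highest *Mmp2* of the wild-type libraries, 41.2 CPM, which was below all sEH-/- libraries. The part of stromal RNA in the *Mmp2* values was not tested. The 9 neutrophil markers counted summed to between 41.5 and 54.2 CPM in sEH-/- and between 27.5 and 34.4 CPM in wild-type libraries, with the highest sum in sEH-/- replicate 1, as for *Mmp9*. Most of this sum came from *S100a8* and *Cebpe*. *S100a8* had 23.95, 29.7 and 27.1 CPM in the sEH-/- and 17.2, 18.2 and 20.1 CPM in the wild-type libraries (log2 fold change 0.54, edgeR adjusted p = 0.057). *Cebpe* had 23.3, 10.3 and 9.74 against 7.48, 7.79 and 7.71 CPM (0.93, adjusted p = 0.12). The granule genes *Camp*, *Ltf*, *Ngp* and *Elane* and the calprotectin gene *S100a9* had at most 10 counts in any library. *S100a8*, *Cebpe* and the scarce *Camp*, *Ngp* and *Elane* were higher in all sEH-/- libraries without overlap, while *Ltf* and *S100a9* overlapped. Over all tested genes 11.8% were higher in this way. The granule gene *Prtn3* went the other way, with 15, 12 and 9 counts in the sEH-/- and 11, 36 and 31 counts in the wild-type libraries (log2 fold change −0.98, SE 0.37, edgeR adjusted p = 0.14). *Ly6g*, *Mpo* and *Retnlg* were looked for by name but were not among the genes counted. The part of neutrophil-type RNA in the *Mmp9* difference was not tested. The 10 osteoclast markers summed to between 859.2 and 1053 CPM in sEH-/- and between 1010 and 1046 CPM in wild-type libraries. Of these, 8 could be tested. *Dcstamp*, which is needed for the fusion of macrophages, was called higher (log2 fold change 0.76, SE 0.17, edgeR adjusted p = 0.036). The integrin subunit *Itgb3*, taken up again with the docking genes, was called lower. Over all tested genes 1.51% were called higher and 1.1% lower.

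**Figure D2:**
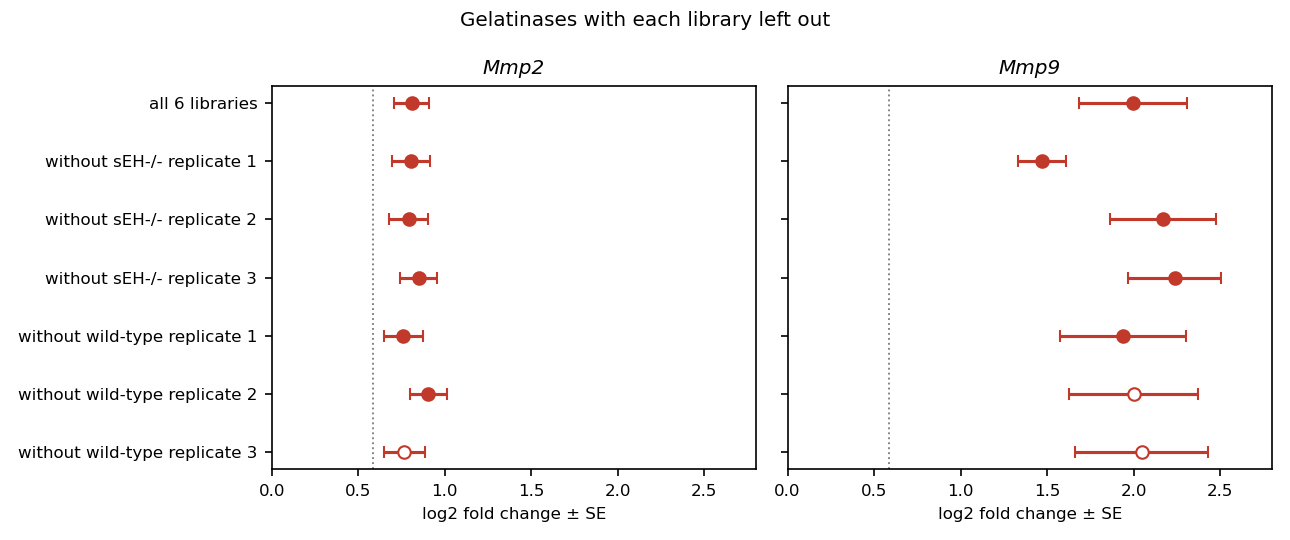
Log2 fold change (x axis, ± SE from edgeR) of *Mmp2* and *Mmp9* in all 6 libraries and after leaving out each of them. Filled symbols mark fits in which the gene was called and the dotted line a 1.5-fold change. Open symbols appear for *Mmp2* without wild-type replicate 3 and for *Mmp9* without wild-type replicate 2 or 3, while *Mmp9* is lowest, at 1.47, without sEH-/- replicate 1.

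The collagenases *Mmp8* and *Mmp13*, which cut triple-helical collagen, and the metalloelastase *Mmp12*, the elastin-degrading enzyme typical of macrophages, are neighbors in a cluster on chromosome 9 (chr9:7272514-7581885). *Mmp13* lies at chr9:7272514-7283331, *Mmp12* at chr9:7344381-7369499 and *Mmp8* at chr9:7558456-7568485, and the order of the cluster along the plus strand is *Mmp13*, *Mmp12*, *Mmp3*, *Mmp10*, *Mmp8* and *Mmp27*. *Mmp12* had 358.1, 400.7 and 467.0 CPM in sEH-/- libraries and 444.1, 391.5 and 368.7 CPM in the wild-type libraries (log2 fold change 0.025, SE 0.11, edgeR adjusted p = 0.92). Its 95% interval of the fold change, from 0.857 to 1.21, lay below the change measured for *Mmp2*. However, the counts of *Mmp12* rose less than in proportion to depth, as described below. A change in its RNA may therefore be understated, and one of that size is not excluded. With the counts corrected for a ceiling, as described below, the log2 fold change of *Mmp12* was 0.015 (edgeR adjusted p = 0.95). *Mmp13* had 248.6, 308.3 and 345.7 CPM in the sEH-/- and 346.5, 285.1 and 294.3 CPM in the wild-type libraries (log2 fold change −0.038, SE 0.12, edgeR adjusted p = 0.89). *Mmp8* had 255.9, 300.5 and 330.2 CPM in the sEH-/- and 299.7, 246.0 and 250.8 CPM in the wild-type libraries (log2 fold change 0.15, SE 0.11, edgeR adjusted p = 0.44). None of these 3 genes separated the genotypes.

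Of the other genes in the cluster, *Mmp27*, a less studied MMP next to *Mmp8*, had 75.5, 80.3 and 70.7 CPM in the sEH-/- and 63.8, 43.8 and 45.5 CPM in the wild-type libraries. Its adjusted p was below 0.05, but its log2 fold change of 0.58 (SE 0.13, edgeR adjusted p = 0.043) corresponds to 1.49-fold, just under the threshold of 1.5-fold. It was called in 4 of 14 alternatives. The stromelysins, which cleave proteoglycans and other MMP proenzymes, were scarce. *Mmp10* had between 6 and 32 counts per library and a difference of 0.81 on the log2 scale (SE 0.52, edgeR adjusted p = 0.39), and *Mmp3* had 8 counts in sEH-/- replicate 1 and 0 in the other 5 libraries, too few for a test. *Mmp3* and *Mmp10* were named after their values had been seen.

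The counts of the abundant members hardly followed the depth of the library. Duplicate reads had been removed before counting, so that a gene can carry only a limited number of counts per exonic base, and no gene had more than 0.972 on average. *Mmp8* carried 0.597 and *Mmp13* 0.589 counts per exonic base, and *Mmp2* and *Mmp9* carried 0.0779 and 0.0610. The library totals differed by 1.39-fold, from 4400197 to 6096440 counts, but the raw counts of *Mmp8* lay between 1363 and 1516, a 1.11-fold range. The slope of the log2 counts on the log2 library total, which would be 1 for counts proportional to depth, was 0.219 for *Mmp8* and 0.247 for *Mmp13*, as a description over 6 libraries. It was 0.414 for *Mmp12*, 0.347 for *Mmp19*, 0.279 for *Timp2*, 0.874 for *Mmp2*, 1.46 for *Mmp9* and 3.17 for the scarce *Timp3*. The slope did not simply follow coverage, since *Mmp14* (0.0733) and *Timp1* (−0.502) had lower slopes than *Mmp8* at only 0.212 and 0.286 counts per exonic base. The median slope fell from 1.26 for 4701 genes with 0.03 to 0.1 counts per base to 0.404 for 217 genes with 0.4 to 0.7. The 2 smallest libraries, sEH-/- replicate 3 and wild-type replicate 1, had the highest CPM of *Mmp8*, *Mmp12* and *Mmp13* within their genotypes. After a correction that treats 1 count per exonic base as the ceiling, the log2 fold changes were 0.19 for *Mmp8*, −0.12 for *Mmp13* and 0.015 for *Mmp12*, and none was called.

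**Figure D3:**
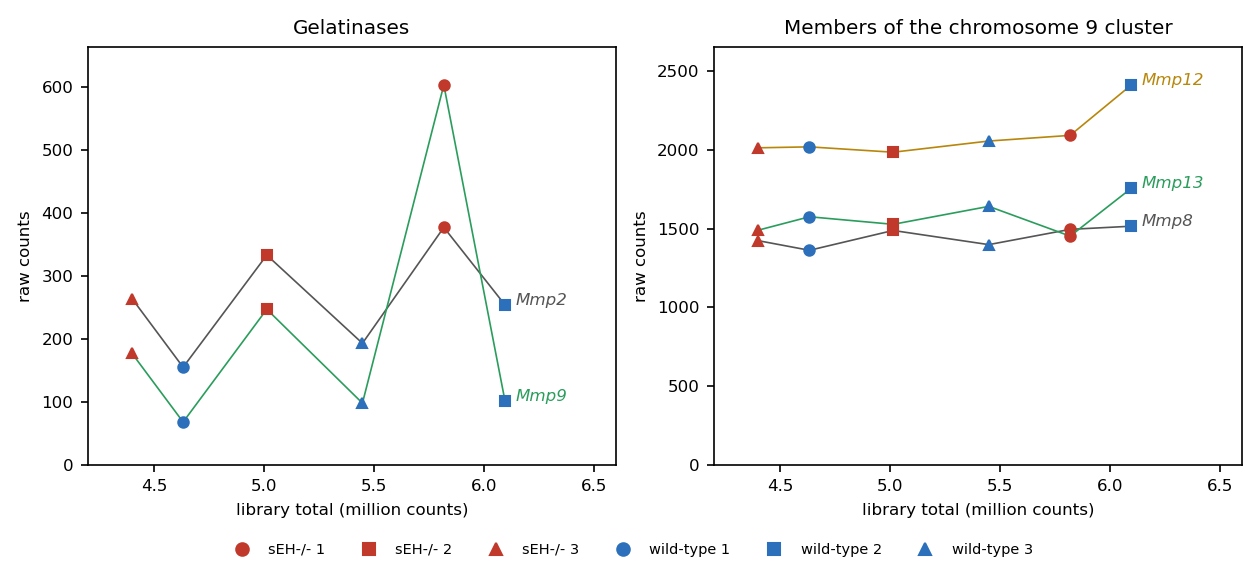
Raw counts (y axis, from 0) against the library total (x axis) for the gelatinases *Mmp2* and *Mmp9* (left) and for *Mmp8*, *Mmp13* and *Mmp12* (right), with sEH-/- libraries in red and wild-type libraries in blue. Lines join the libraries of one gene in the order of their totals. *Mmp8* stays between 1363 and 1516 counts whatever the total, whereas *Mmp2* and *Mmp9* are higher in the sEH-/- libraries.

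A ratio of 2 genes within a library does not depend on how the library is scaled. It can still depend on depth where the counts of the 2 genes follow depth unequally. The counts per exonic base of *Mmp8* relative to *Mmp13*, a pair chosen after the counts had been seen, were 1.13, 1.07 and 1.05 in the sEH-/- and 0.953, 0.951 and 0.939 in the wild-type libraries. Thus *Mmp8* was the more densely covered collagenase in each sEH-/- library and *Mmp13* in each wild-type library. The log2 ratios differed by 0.20 between the genotypes, and 0.32 with the counts corrected for the ceiling. With 3 mice against 3, the two-sided exact permutation test gave p = 0.1, the smallest value it can reach.

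*Mmp14* (chr14:54431612-54445364, plus strand) encodes a membrane-bound MMP that cleaves collagen at the cell surface and, together with TIMP-2, activates the proenzyme of MMP-2. It had 219.8, 279.9 and 292.2 CPM in the sEH-/- and 260.5, 207.7 and 215.3 CPM in the wild-type libraries (log2 fold change 0.21, SE 0.12, edgeR adjusted p = 0.32). The 95% interval of its fold change, from 0.963 to 1.39, included 1. *Mmp19* (chr10:128790910-128800824, plus strand), which encodes a secreted enzyme of basement membrane proteins, had 138.9, 142.7 and 189.4 CPM in the sEH-/- and 161.6, 144.6 and 140.5 CPM in the wild-type libraries (log2 fold change 0.074, SE 0.12, edgeR adjusted p = 0.75). As for the cluster genes, the smallest library of each genotype had the highest *Mmp19* value in that genotype. The same held for *Mmp14* and for *Timp2*, and the part of depth in their overlap between the genotypes was not tested.

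Among the inhibitors, *Timp1*, which encodes the inhibitor that binds the proenzyme of MMP-9, lies within *Syn1* at chrX:20870166-20874735, on the opposite strand. Its level was 32.2, 57.5 and 73.5 CPM in sEH-/- libraries and 45.1, 43.2 and 47.0 CPM in the wild-type libraries. The sEH-/- libraries lay on both sides of the wild-type libraries, and the one with the most *Mmp9*, replicate 1, had the least *Timp1*. The log2 fold change of *Timp1* was 0.25 (SE 0.23, edgeR adjusted p = 0.55), and the 95% interval of the fold change, from 0.838 to 1.70, was wide. Without sEH-/- replicate 1 the log2 fold change was 0.54 (edgeR adjusted p = 0.033), under the threshold of 1.5-fold. Without sEH-/- replicate 3 it was −0.0098 (edgeR adjusted p = 0.98). *Timp2* (chr11:118301069-118355740, minus strand), the partner of MMP-2, had 238.7, 299.4 and 306.8 CPM in the sEH-/- and 273.9, 234.3 and 239.5 CPM in the wild-type libraries (log2 fold change 0.18, SE 0.11, edgeR adjusted p = 0.36). On the same strand it overlaps *Cep295nl*, which had 26 counts in all 6 libraries, and reads over both genes were not counted. *Timp3* (chr10:86300372-86349506, plus strand), which encodes a matrix-bound inhibitor also active against ADAM17, was scarce, with 15, 60 and 15 counts in the sEH-/- and 14, 69 and 56 counts in the wild-type libraries.

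The *Timp3* libraries fell into a low and a high set that crossed the genotypes. The log2 fold change of *Timp3* was −0.46 (SE 0.57, edgeR adjusted p = 0.68), and its 95% interval of the fold change, from 0.305 to 1.74, covers a fall as well as a rise. Among the wild-type libraries the stromal marker sum was likewise lowest in replicate 1, at 16.5 CPM, and highest in replicate 2, at 89.9 CPM, and among the sEH-/- libraries it was highest in replicate 2, at 38.5 CPM. However, sEH-/- replicate 1 had nearly the same sum, 35.1 CPM, with 15 *Timp3* counts against 60 in replicate 2. Its part in the *Timp3* values was not tested.

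**Figure D4:**
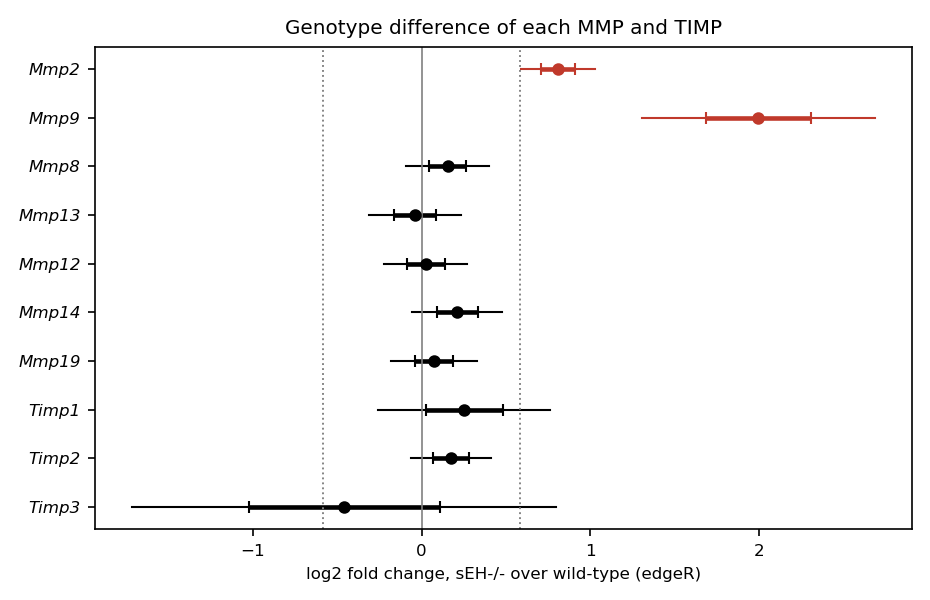
Log2 fold change of sEH-/- over wild-type cells (x axis) for the 10 genes from edgeR, with thick bars for the SE and thin bars for the 95% interval, and dotted lines at a 1.5-fold change in either direction. *Mmp9* (1.995) and *Mmp2* (0.81), in red, are the called genes, and the intervals of the other 8 include 0.

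Ratios of an enzyme to its inhibitor were also compared within each library. *Mmp9* relative to *Timp1*, in counts per exonic base, was 0.805, 0.217 and 0.140 in sEH-/- libraries, compared with 0.0832, 0.0962 and 0.0939 in the wild-type libraries. All sEH-/- libraries were above all wild-type libraries, although 2 of them by far less than replicate 1. The log2 ratio was higher by 1.68 in sEH-/- cells (SD 1.31 and 0.11 in sEH-/- and wild-type cells, n = 3 mice each, exact permutation p = 0.1), and by 0.94 without sEH-/- replicate 1. *Mmp2* relative to *Timp2* was 0.312, 0.259 and 0.231 in the sEH-/- and 0.144, 0.203 and 0.167 in the wild-type libraries, a log2 difference of 0.65 (exact permutation p = 0.1). *Mmp14* relative to *Timp2* hardly varied, between 0.579 and 0.623 over the 6 libraries, with a log2 difference of 0.038 (exact permutation p = 0.3). The smallest p that 3 mice against 3 allow is 0.1 in each case. These pairs were also chosen after the counts had been seen. Within each genotype, *Mmp9* relative to *Timp1* and *Mmp2* relative to *Timp2* were higher the larger the library total. The slopes on the library total were 1.46 for *Mmp9* against −0.502 for *Timp1*, and 0.874 for *Mmp2* against 0.279 for *Timp2*. The part of depth in these ratios was not tested.

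To compare levels between genes, CPM were divided by the exonic length in kilobases. In wild-type cells this level was highest for *Mmp13* (115.5 ± 12.4, SD, n = 3 mice) and *Mmp8* (109.5 ± 12.3), followed by *Timp2* (64.0 ± 5.53), *Mmp12* (55.5 ± 5.34), *Timp1* (50.8 ± 2.14), *Mmp19* (42.2 ± 3.16) and *Mmp14* (38.2 ± 4.79). *Mmp2* (10.9 ± 1.18), *Mmp9* (4.62 ± 0.37) and *Timp3* (0.995 ± 0.54) were the lowest. Along this order the ranges of *Mmp13* and *Mmp8*, of *Timp2* and *Mmp12*, and of *Mmp19* and *Mmp14* overlapped. Within every wild-type library, however, the first gene of each of these pairs was the higher. The ranges of *Mmp12* and *Timp1* overlapped too, and *Timp1* was the higher in wild-type replicate 3 only. In sEH-/- cells *Mmp2* and *Mmp9* reached 19.1 ± 0.89 and 18.3 ± 9.50 CPM per kilobase, and their libraries overlapped. Both remained below the other 5 MMPs in these cells. The levels of *Mmp8* and *Mmp13* may be understated by the removal of duplicates, and that of *Mmp12* by the summed exons of several transcripts.

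Among 10276 further genes whose counts averaged 50 or more, those whose log2 CPM followed *Mmp9* most closely over the 6 libraries were *Zfp862-ps*, *Iqce* and *Lrp4*, with Pearson correlations of 0.993, 0.993 and 0.992. Those closest to *Mmp2* were *9530082P21Rik*, *Per2* and *Wwc2*, with 0.998, 0.994 and 0.988. With 6 libraries that share their genotypes, these values are a description of the ranking only. None of the 6 genes was called, and their log2 fold changes lay between 0.16 for *Iqce* and 0.64 for *9530082P21Rik*.

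The other MMP genes and *Timp4* were examined as a list. Of 17 genes, 12 were counted, 6 could be tested and 0 were called by edgeR, with a median log2 fold change of 0.43. At an adjusted p below 0.05 alone 1 passed, *Mmp27*, against 4.01% of all tested genes, and 2 had an unadjusted p below 0.05, against 23.4% of all tested genes. DESeq2 called 0 and limma-voom 1 of them, again *Mmp27*. *Mmp11* (−0.48, SE 0.31, edgeR adjusted p = 0.39) and *Mmp25* (0.28, SE 0.34, adjusted p = 0.67) were the most abundant after *Mmp27*, with means of 8.57 and 4.87 CPM in wild-type cells. Of the related ADAM and ADAMTS proteinases, which shed membrane proteins and cut proteoglycans, 11 of 17 could be tested and 0 were called by edgeR or limma-voom, while DESeq2 called 1, the versican-cleaving *Adamts1*, named after its values had been seen. It had a log2 fold change of −1.25 in edgeR. At an unadjusted p below 0.05 there were 4, against the same 23.4% over all tested genes, and the median log2 fold change of the 11 was 0.17. The most abundant were *Adam8*, *Adam17* and *Adam10*, with log2 fold changes of 0.042 (SE 0.10), 0.30 (SE 0.099) and 0.084 (SE 0.085). *Adam17*, the shedding enzyme of TNF, had an adjusted p of 0.10 from edgeR.

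Of 14 tested genes that activate, dock, inhibit or clear MMPs, 2 were called higher and 1 lower, where 1.51% and 1.1% of all tested genes were, with a median log2 fold change of 0.14. *Lcn2* encodes lipocalin-2, whose human form binds MMP-9 and protects it from degradation. It had 72.7, 63.6 and 96.7 CPM in the sEH-/- and 36.7, 32.0 and 43.7 CPM in the wild-type libraries (log2 fold change 1.05, SE 0.16, edgeR adjusted p = 0.015). *Serpinb2*, which encodes an inhibitor of urokinase, had 14.5, 9.08 and 3.01 CPM against 1.099, 0.974 and 1.79 CPM (log2 fold change 2.79, SE 0.55, edgeR adjusted p = 0.029). Like *Mmp9*, *Serpinb2* was highest in sEH-/- replicate 1. *Itgb3*, a subunit of the αvβ3 integrin that docks MMP-2 at the cell surface, had 45.0, 26.0 and 49.2 CPM against 73.7, 155.0 and 100.4 CPM (log2 fold change −1.47, SE 0.27, edgeR adjusted p = 0.025). The endocytic receptor *Lrp1*, which clears MMPs, the hyaluronan receptor *Cd44*, which anchors MMP-9, and the proprotein convertase *Furin*, which activates MMP-14, had log2 fold changes between 0.13 and 0.15 with none called.

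Of 13 tested matrix proteins that MMPs cleave, 2 were called higher, against 1.51% of all tested genes, and the median log2 fold change was 0.12. *Fn1*, which encodes fibronectin, had 167.0, 325.7 and 294.7 CPM in the sEH-/- and 91.0, 84.1 and 65.4 CPM in the wild-type libraries (log2 fold change 1.71, SE 0.22, edgeR adjusted p = 0.0087). *Thbs1*, which encodes thrombospondin-1, a protein that can activate latent TGF-β, had 674.9, 655.2 and 752.4 CPM against 429.4, 287.7 and 269.6 CPM (log2 fold change 1.08, SE 0.16, edgeR adjusted p = 0.014). Neither overlapped between the genotypes, with all sEH-/- values the higher ones, as in 11.8% of all tested genes. *Spp1*, *Lamc1* and *Col5a1*, the most abundant of the others, were not called, with log2 fold changes of 0.12, −0.12 and 0.68. The last had an adjusted p of 0.22 from edgeR.

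**Figure D5:**
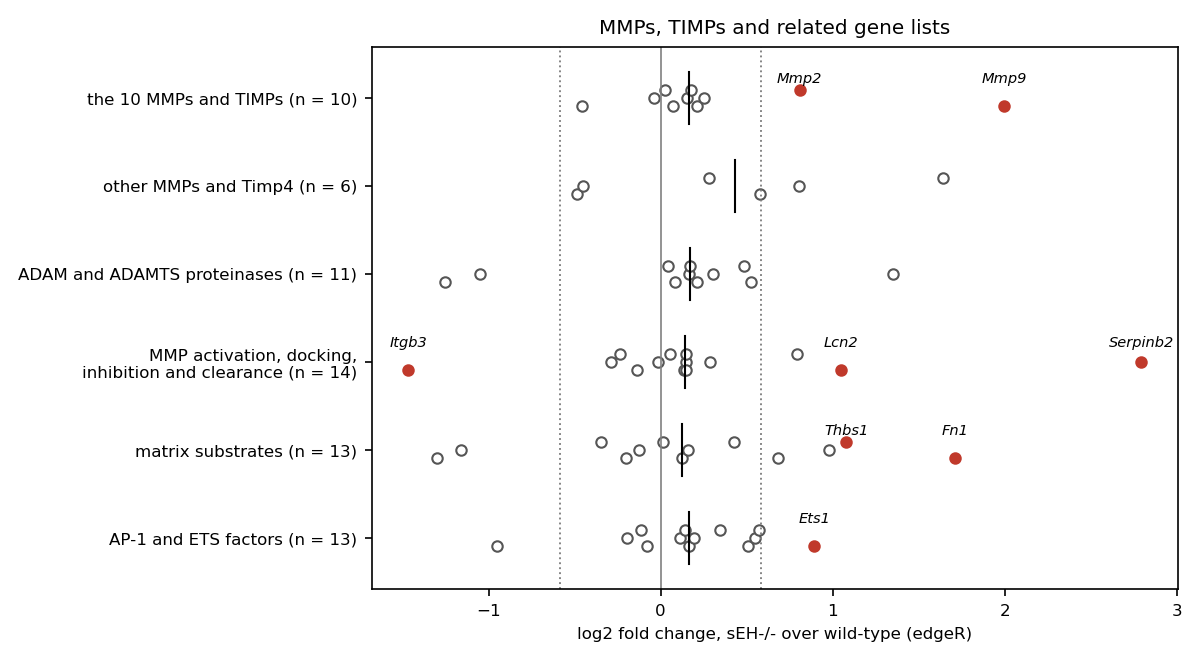
Log2 fold change of sEH-/- over wild-type cells (x axis) for each tested gene of the 10 MMPs and TIMPs and of 5 related lists, with called genes filled and named, a black bar at the median of each list and dotted lines at a 1.5-fold change in either direction. *Mmp9*, *Mmp2*, *Serpinb2*, *Lcn2*, *Fn1*, *Thbs1* and *Ets1* are called to the right of 0 and *Itgb3* to the left.

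Without wild-type replicate 3 none of the called genes of the 5 lists kept its call. *Lcn2*, *Thbs1*, *Serpinb2*, *Itgb3* and *Ets1* also lost theirs without wild-type replicate 2, and *Serpinb2*, *Itgb3* and *Ets1* without sEH-/- replicate 2. *Serpinb2* was also not called by limma-voom (adjusted p = 0.061). Its adjusted p over all alternatives lay between 8.8e-05 and 0.15.

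AP-1 and ETS factors are the classical activators of MMP promoters. The 13 tested had a median log2 fold change of 0.16. Of these, 1 was called higher, against 1.51% of all tested genes, namely *Ets1* with 32.2, 24.8 and 19.3 CPM in the sEH-/- and 13.4, 14.1 and 13.8 CPM in the wild-type libraries (log2 fold change 0.89, SE 0.19, edgeR adjusted p = 0.034). *Fosl2*, an AP-1 subunit, differed by 0.51 on the log2 scale (SE 0.086, edgeR adjusted p = 0.019) and the ETS factor *Elk3*, named after its value had been seen, by 0.57 (SE 0.10, adjusted p = 0.024), both under the threshold of 1.5-fold. *Jun* and *Spi1* were not called, with log2 fold changes of 0.11 and 0.14. Windows of 250 bases upstream of the start site (RefSeq, GRCm38.p6) were searched on both strands for AP-1 (TGANTCA) and ETS (AGGAAG) letters. Windows were found for 7 of the 10 genes, 8 windows in all, because *Mmp12* had 2. *Mmp2*, *Mmp9* and *Mmp19* had no entry. Of the 7, *Mmp12* and *Mmp13* held an AP-1 match, against 6.75% of all 32851 windows, and 6 held an ETS match, against 29.5%. The AP-1 match of *Mmp12* lies only in its second window (chr9:7347124-7347373), which is inside the span of the gene. Shares of genes and shares of windows are not the same measure. The other motifs searched were SP1 (GGGCGG), found in 4 genes and 32.7% of all windows, the TATA box (TATAAA) in 1 and 12.4%, a Smad motif (CAGACA) in 1 and 17.1%, and NF-kB in 1 and 7.25%. The *Mmp13* window (chr9:7272264-7272513, plus strand) is shown because it holds AP-1 and ETS letters, which are in capitals.
Mmp13: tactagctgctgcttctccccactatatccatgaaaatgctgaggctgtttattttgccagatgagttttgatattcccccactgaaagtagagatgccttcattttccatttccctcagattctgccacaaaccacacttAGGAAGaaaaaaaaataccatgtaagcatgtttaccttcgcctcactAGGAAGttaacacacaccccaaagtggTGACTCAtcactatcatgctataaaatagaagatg
The AP-1 letters lie at positions −35 to −29 and the ETS letters at −109 to −104 and −62 to −57, counted from the base before the start site as −1. A match is a description of the sequence and was not tested as a site. *Mmp13* itself did not pass the test.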

How the data were processed

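Reads per gene were counted by the authors, and the deposited values are raw counts without normalization. According to the methods, reads were trimmed with Trimmomatic, aligned to mm10 with STAR, cleared of duplicates (Picard) and of ribosomal, mitochondrial or multi-mapping reads, and assigned by strand to exons with featureCounts. Versions in the submitters' processing notes (STAR 2.7.7a, featureCounts 1.6.5) differ from those in the methods. RNA input and library kit also differ between methods and labels. The study gives 3 mice per group. No deposited column of other samples was present (0).

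Library totals were 4400197 to 6096440 counts. Genes with a mean above 5 counts were tested with edgeR 4.0.16 in R 4.3.3 (TMM, glmQLFit, glmQLFTest, no covariates), which was tested on simulated data. SEs were obtained as log2 fold change over √F. Exonic lengths came from GENCODE M21, which held 19286 of the 19309 identifiers. The members and lists were chosen with earlier results of these data known. Named genes were the members, called list genes, the 3 most abundant uncalled genes per list and the 3 genes most like each called member. Alternatives were DESeq2 1.42.0, limma-voom 3.58.1, RLE or no scaling factors, other filters, a replicate block, a ceiling correction, no fold change threshold and leaving out each library. The ratios' alternatives were chosen after seeing the data.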

Additional observations from a re-analysis of the deposited data

How the results depend on the processing

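*Mmp2* and *Mmp9* stayed higher in sEH-/- cells under all 14 refits, and the cause of the changes below was not tested. The number of genes called changed from 360 to 234 with the replicate block and to 553 without the fold change threshold, and ranged from 6 (without wild-type replicate 3) to 625 (without wild-type replicate 1) with single libraries left out. In those last refits 0 to 2 of the 10 MMPs and TIMPs were called, 0 to 1 of the other MMPs, 0 to 2 of the ADAMs, 0 to 3 of the activation genes, 0 to 4 of the substrates and 0 to 3 of the AP-1 and ETS factors. Other settings gave 1 other MMP (ceiling correction, limma-voom or no fold change threshold), 1 ADAM (DESeq2 or no filter), and 2 (ceiling correction), 0 (replicate block) or 3 (no fold change threshold) AP-1 and ETS factors.

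With single libraries left out, log2 fold changes ranged from 0.76 to 0.90 for *Mmp2*, from 1.47 to 2.24 for *Mmp9*, from −0.072 to 0.11 for *Mmp12*, from −0.14 to 0.085 for *Mmp13* and from −0.070 to 0.16 for *Mmp19*. They ranged from −0.0098 to 0.54 for *Timp1*, from 0.14 to 0.33 for *Mmp14*, from 0.078 to 0.25 for *Mmp8*, from 0.12 to 0.28 for *Timp2* and from −1.45 to −0.064 for *Timp3*. The sign turned without sEH-/- replicate 3 for *Mmp12*, *Mmp19* and *Timp1* (the low ends above), without sEH-/- replicate 1 for *Mmp13* (its high end), and in further refits for *Mmp13* (0.051 without wild-type replicate 1), *Mmp12* (−0.033 without wild-type replicate 3), *Mmp25* (range −0.18 to 0.49, lowest without sEH-/- replicate 1) and *Adam8* (−0.011 without sEH-/- replicate 3 and −0.015 without wild-type replicate 2).

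The labels do not state whether libraries with the same replicate number form a pair. The deviations of same-numbered libraries correlated at −0.0818, −0.26 and −0.0367, and none of the libraries correlated best with its own number. These correlations cannot exclude pairing, since the deviations of so few libraries within a genotype depend on each other. Whether the same replicate number marks a pair is thus not known. With the replicate block the log2 fold changes were 0.81 for *Mmp2* and 1.87 for *Mmp9*, both called. *Ets1* lost its call with the block (0.86, edgeR adjusted p = 0.056, against 0.0052 to 0.16 over its alternatives). Low counts left wide intervals for *Timp3* and *Mmp10* and no test for *Mmp3*.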
